A study of Homo sapiens with 12 samples.

Results

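The levels of 10 genes of myeloid lineage transcription factors, SPI1, CEBPA, CEBPB, CEBPD, CEBPE, GFI1, IRF8, KLF4, RUNX1 and RARA, were followed through a treatment of acute myeloid leukaemia cells. The genes were chosen by name, with earlier results of these data known. All 10 were found among the 13881 genes of the deposited expression table. Total RNA was sequenced from KG-1 and from MOLM-14, established human cell lines of this leukaemia, after 96 h with ASLAN003 or with its solvent DMSO. ASLAN003 blocks dihydroorotate dehydrogenase, which makes a precursor of pyrimidine nucleotides, and the sources used here give no dose. The 4 groups were KG-1 with ASLAN003, KG-1 with DMSO, MOLM-14 with ASLAN003 and MOLM-14 with DMSO, each with 3 libraries. Each line comes from 1 patient's leukaemia, so it stands for that leukaemia alone, and all groups grew in RPMI1640 medium with fetal bovine serum.

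These factors act together when a blood progenitor takes the granulocytic or the monocytic path. PU.1, the product of SPI1, opens enhancers of both paths, and C/EBP-alpha (CEBPA) is needed to form granulocyte and monocyte progenitors and to restrain their division. C/EBP-epsilon (CEBPE) and the repressor GFI1 act in granulocyte maturation, IRF8 and KLF4 favour monocytes, RUNX1 acts upstream in progenitors, and the retinoic acid receptor RARA drives granulocyte maturation when it binds its ligand. Several of these genes are mutated or fused in acute myeloid leukaemia, where maturation is blocked.

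The genes lie on 10 different chromosomes, so none neighbours another. For 8 of them the RefSeq promoter table (GRCh38.p14, 250 bases before to 50 after each start) gave 14 windows, with none used for SPI1 and CEBPD. These windows were searched on both strands for motifs of the factors themselves, because their products are known to bind one another's genes. The C/EBP motif TTNNGCAA was in 1 of the 14 windows and in 10.5% of all 35116 promoters, and the PU.1 motif GAGGAAG in 1 of 14 and in 13.6%. The RUNX motif TGTGGT was in 2 of 14 windows and in 13.1% of all, and neither an interferon regulatory factor motif of 2 GAAA copies set 2 bases apart (3.57% of all) nor the GFI1 motif AAATCAC (3.14% of all) was found. The 3 windows with a match are shown 5′ to 3′ along their gene with the matches in capitals, and none of the matches overlapped a match to another motif. The CEBPE window (chr14:23119206-23119505, minus strand) holds a PU.1 match that begins 41 bases before the start. The GFI1 window (chr1:92486050-92486349, minus strand) holds a C/EBP match 142 bases before the start, whose 8 bases read the same on both strands, and a RUNX match 47 bases before it. The IRF8 window (chr16:85902580-85902879, plus strand) holds a RUNX match 134 bases before the start. All 3 windows shown lie inside the span that GENCODE 29 gives their gene, so each belongs to a start downstream of the outermost one. The other windows of GFI1 (chr1:92486876-92487175 and chr1:92483765-92484064) and of IRF8 (chr16:85902765-85903064) held no match to any of these motifs. A match to a motif is only a match of letters.
CEBPE: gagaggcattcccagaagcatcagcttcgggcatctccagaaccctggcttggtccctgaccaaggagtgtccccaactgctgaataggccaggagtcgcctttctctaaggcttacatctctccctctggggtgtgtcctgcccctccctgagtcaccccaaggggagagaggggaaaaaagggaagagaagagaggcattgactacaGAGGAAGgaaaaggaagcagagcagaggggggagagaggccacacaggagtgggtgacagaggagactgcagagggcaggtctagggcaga
GFI1: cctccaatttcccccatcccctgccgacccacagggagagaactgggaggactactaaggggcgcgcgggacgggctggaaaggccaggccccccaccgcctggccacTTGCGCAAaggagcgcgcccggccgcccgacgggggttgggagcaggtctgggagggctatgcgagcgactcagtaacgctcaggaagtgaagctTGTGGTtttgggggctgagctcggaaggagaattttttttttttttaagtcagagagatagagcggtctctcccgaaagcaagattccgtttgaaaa
IRF8: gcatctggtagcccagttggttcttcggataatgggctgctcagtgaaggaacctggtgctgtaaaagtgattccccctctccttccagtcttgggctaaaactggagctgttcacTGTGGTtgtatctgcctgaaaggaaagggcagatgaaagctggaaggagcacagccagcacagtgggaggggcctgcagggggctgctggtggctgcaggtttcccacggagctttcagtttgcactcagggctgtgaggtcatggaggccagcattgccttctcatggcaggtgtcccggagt

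In the libraries as a whole, 11942 to 12639 genes reached 1 FPKM (sequenced fragments scaled to the gene's length and the library's total). The general leukocyte gene PTPRC (49.2 to 181 FPKM) and the myeloid genes CD33 (23.5 to 46.5 FPKM) and MPO (4.04 to 172 FPKM) were detected in every library, whereas the progenitor marker CD34, which KG-1 cells are usually described to carry, was at most 0.17 FPKM in any. The T cell gene CD3D was at most 0.22 FPKM. The summed level of the 3 epithelial markers listed (EPCAM, KRT8 and KRT18) was 18.2 to 28.8 FPKM in MOLM-14 with ASLAN003 and 32.9 to 36.3 FPKM in MOLM-14 with DMSO, with EPCAM at 0 in both groups. In KG-1 the sum was 18.4 to 33.2 FPKM with ASLAN003 and 22.9 to 28.8 FPKM with DMSO. EPCAM there was 1.19 to 2.49 FPKM with ASLAN003 and 1.62 to 2.00 FPKM with DMSO. Most of the sum was KRT8 in KG-1 (14.9 to 28.4 FPKM with ASLAN003, 17.9 to 23.6 FPKM with DMSO). In MOLM-14 most of it was KRT18 (15.3 to 24.1 FPKM with ASLAN003, 28.5 to 31.8 FPKM with DMSO). The stromal gene COL1A1 was 7.39 to 10.7 FPKM in KG-1 with ASLAN003 and 6.30 to 7.52 FPKM in KG-1 with DMSO, and 0.54 to 5.01 FPKM in MOLM-14 with ASLAN003 and 0.49 to 1.39 FPKM in MOLM-14 with DMSO. The 2 megakaryocyte genes listed (ITGA2B and GP9) summed to 1.53 to 2.28 FPKM in KG-1 with ASLAN003 and 2.21 to 3.44 FPKM with DMSO, and to 0.56 to 1.89 FPKM in MOLM-14 with ASLAN003 and 0.05 to 0.37 FPKM with DMSO. Whether these genes had a part in the results was not tested. Ribosomal protein genes took 15.2% to 16.3% of the listed FPKM in KG-1 with ASLAN003 and 25.6% to 26.7% with DMSO, and 22.6% to 27.8% in MOLM-14 with ASLAN003 and 33.6% to 34.4% with DMSO. The mitochondrial genes took 3.17% to 5.23% in KG-1 with ASLAN003 and 5.26% to 5.69% with DMSO, and mitochondrial ribosomal RNA 0.185% to 0.324% with ASLAN003 and 0.0972% to 0.111% with DMSO. In MOLM-14 both overlapped between the treatments. Values after rescaling each library without these genes stand beside the counts.

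The library MOLM-14 ASLAN003 replicate 1 stood apart. On the component that separated the treatments (16.3% of the variance) it lay at -36.2, against -14.6 and -9.37 for replicates 2 and 3 of its group. Each of the 10 genes had its highest MOLM-14 ASLAN003 value in this library, which was the highest of its group for 42.2% of all tested genes. MOLM-14 DMSO replicate 3 held the lowest value of its group for all 10 genes. It was the highest of its group for 34.9% of all tested genes, and the share for lowest values is not given here. Without this DMSO library, 2 of the 10 genes were called higher in MOLM-14. The change of each of the 10 genes in MOLM-14 is also given without ASLAN003 replicate 1. Calls lost without DMSO replicate 3 are named with their gene.

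**Figure D1:**
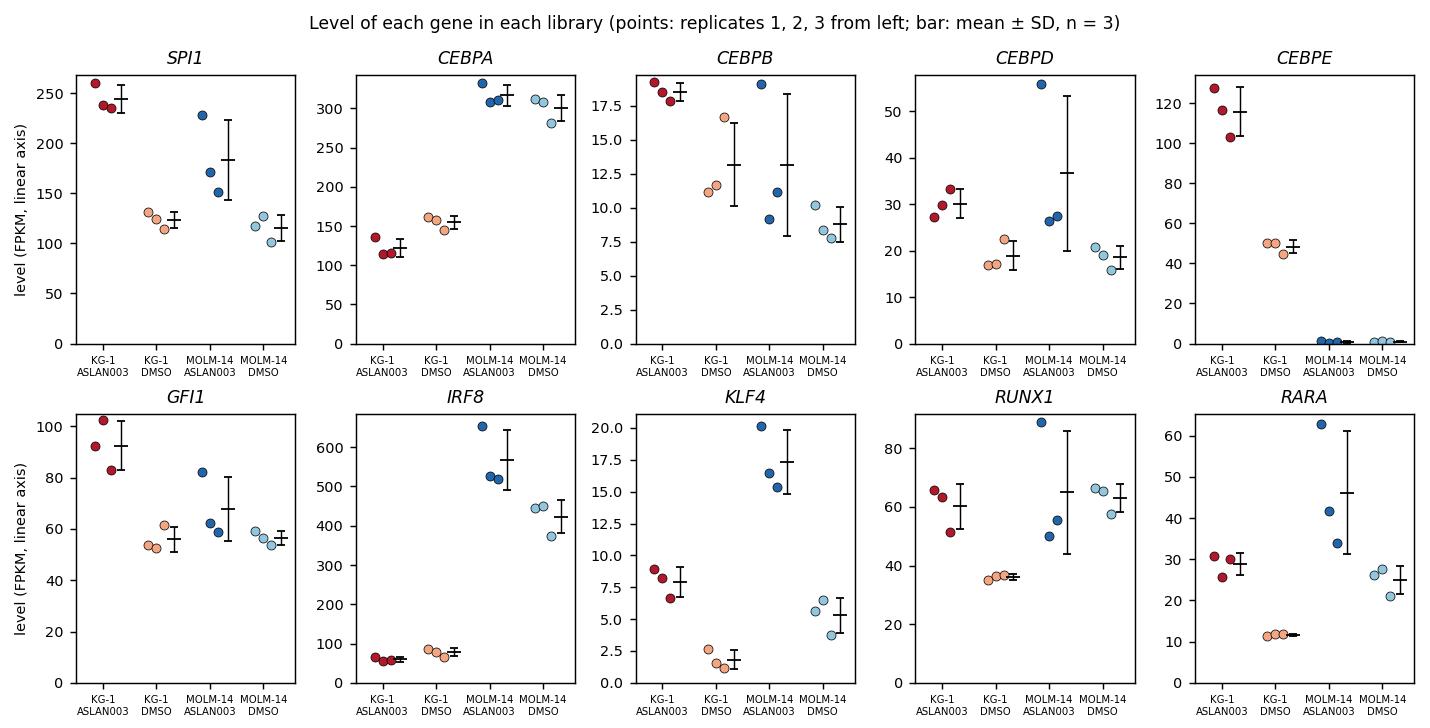
Level of each of the 10 genes in each library, in FPKM on linear axes that start at 0, with the 3 replicates of a group from left to right and the mean ± SD (n = 3) beside them. CEBPE reached 103 to 127 FPKM in KG-1 with ASLAN003 and at most 1.36 FPKM in any MOLM-14 library, and MOLM-14 ASLAN003 replicate 1 was the highest library of its group in every panel.

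In KG-1, most of the 10 genes were higher with ASLAN003. By limma, fitted over all 13353 tested genes and called at an adjusted p under 0.05, 6 rose (KLF4, CEBPE, RARA, SPI1, RUNX1 and GFI1) and 2 fell (CEBPA and IRF8), whereas CEBPB and CEBPD were not called. Of all tested genes, 19.4% were called higher and 14.3% lower in this comparison, and all 10 genes passed the filter on low values. The median log2 change of the 10 was 0.71, against 0.050 over all tested genes. In MOLM-14, 5 rose (KLF4, CEBPD, RARA, SPI1 and IRF8) and 0 fell, against 9.69% of all tested genes called higher and 3.33% lower. None of the 10 had a lower level at an unadjusted p under 0.05 there by limma (0 genes). The median of the 10 in MOLM-14 was 0.45, against 0.076 over all tested genes. KLF4, RARA and SPI1 were called higher in both lines. Without MOLM-14 ASLAN003 replicate 1, only these 3 were called in MOLM-14, and CEBPB and CEBPD were added to the 6 in KG-1, since the libraries share 1 estimate of the spread.

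The log2 changes are differences of mean log2(FPKM + 1), which understates the change of a low gene, and each is given with its standard error. The treatments are described as triplicated without naming separate cultures, so p-values here reflect the variation among these libraries alone, and it may be technical. In bulk RNA, a change in the share of cells that express a gene cannot be told apart from a change in RNA per cell. Centring each library on its median shifted the changes by a median of -0.12 in KG-1 and -0.15 in MOLM-14. Relative to that shift, the same 8 genes were called in KG-1, and in MOLM-14 the calls left were KLF4, RARA and SPI1. Rescaling each library without its ribosomal protein, mitochondrial, small RNA and histone genes gave 6 higher and 2 lower in KG-1, and 4 higher and 0 lower in MOLM-14. Over all tested genes, 1994 were called higher and 2671 lower in KG-1 after centring, and 728 and 921 in MOLM-14. After rescaling these counts were 2251 and 2190 in KG-1, and 1013 and 542 in MOLM-14.

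**Figure D2:**
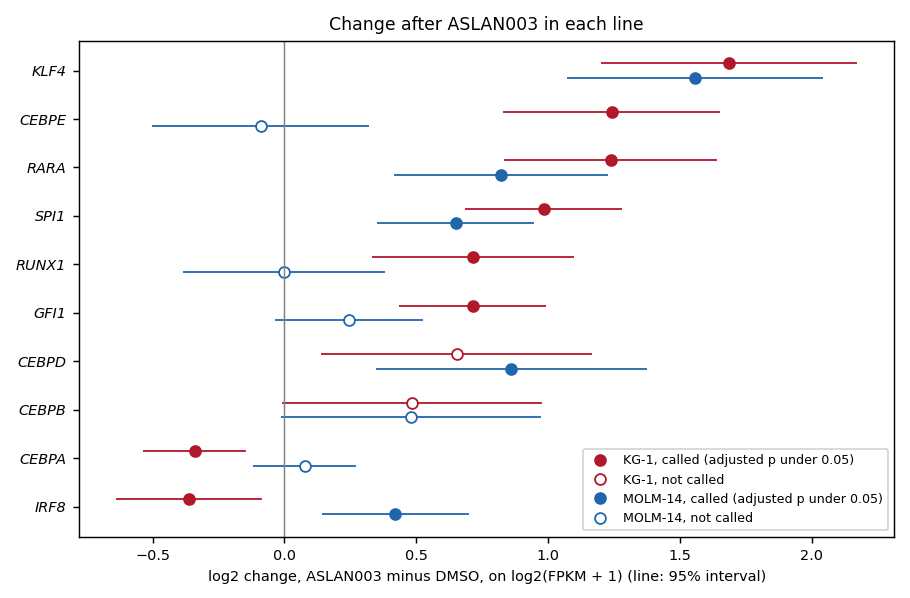
Log2 change (ASLAN003 minus DMSO, on log2(FPKM + 1)) of each gene in KG-1 and in MOLM-14, with the 95% interval of the limma fit as a line and filled points for calls at an adjusted p under 0.05. KLF4 lies at 1.69 in KG-1 and 1.56 in MOLM-14, while CEBPE, RUNX1 and GFI1 are called in KG-1 alone and IRF8 is below 0 in KG-1 and above 0 in MOLM-14.

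SPI1 (ENSG00000066336.11, GRCh38 chromosome 11, 47354860 to 47378576, minus strand) encodes PU.1, the ETS-family factor without which monocytes, granulocytes and B cells do not form. Its level was 260.5, 238 and 235 FPKM in the KG-1 ASLAN003 libraries, against 131, 124 and 115 FPKM in the KG-1 DMSO libraries. All treated libraries lay above all control libraries, and the replicates of each group were close to one another. The level rose 1.98-fold (log2 change 0.98 ± 0.14, adjusted p = 0.000147), and the call held in all 22 alternatives. In the other line SPI1 was 228, 171 and 151 FPKM in the MOLM-14 ASLAN003 libraries, against 117, 128 and 101 FPKM in the MOLM-14 DMSO libraries. The groups again did not overlap, with replicate 1 well above the other treated libraries. The rise in MOLM-14 was 1.59-fold (log2 change 0.65 ± 0.14, adjusted p = 0.00893). Without ASLAN003 replicate 1 the log2 change was 0.48 ± 0.11, adjusted p = 0.0147, and the call was lost only with the line fitted alone (adjusted p = 0.0878).

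Of the C/EBP genes, which encode leucine zipper factors that bind one shared motif, CEBPA fell in KG-1 and CEBPE rose there. CEBPA (ENSG00000245848.2, GRCh38 chromosome 19, 33299934 to 33302564, minus strand) has a single exon and encodes the factor that sets up granulocyte and monocyte progenitors. It was 136, 115 and 116 FPKM in the KG-1 ASLAN003 libraries, against 161, 158 and 145 FPKM in the KG-1 DMSO libraries. The treated libraries all lay below the control libraries. The fall to 0.790 of the DMSO level (log2 change -0.34 ± 0.090, adjusted p = 0.0113) was small, and it missed the threshold without KG-1 DMSO replicate 1 (adjusted p = 0.0516, range 0.00169 to 0.0516 over the alternatives). CEBPA measured 332, 308 and 311 FPKM in the MOLM-14 ASLAN003 libraries, against 312, 308 and 281 FPKM in the MOLM-14 DMSO libraries. These MOLM-14 groups overlapped, and no call was made (log2 change 0.078 ± 0.090, 95% interval -0.12 to 0.27, adjusted p = 0.630). The change in MOLM-14 was -0.072 after median centring and 0.043 ± 0.092, adjusted p = 0.817 without ASLAN003 replicate 1.

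CEBPE (ENSG00000092067.5, GRCh38 chromosome 14, 23117304 to 23119616, minus strand) encodes the factor of late granulocyte maturation, and its promoter window is the one shown with a PU.1 match. It stood at 127, 117 and 103 FPKM in the KG-1 ASLAN003 libraries, against 50.2, 50.2 and 44.5 FPKM in the KG-1 DMSO libraries. The lowest treated library was about double the highest control library. CEBPE rose 2.40-fold in KG-1 (log2 change 1.24 ± 0.19, adjusted p = 0.000291), a call that held in all 22 alternatives. It measured only 1.36, 0.470 and 0.770 FPKM in the MOLM-14 ASLAN003 libraries, against 0.990, 1.34 and 0.590 FPKM in the MOLM-14 DMSO libraries. These low values overlapped between the groups, with ASLAN003 replicate 1 the highest of all, and no change was detectable at this level (log2 change -0.090 ± 0.19, 95% interval -0.50 to 0.32, adjusted p = 0.812, and -0.27 ± 0.17, adjusted p = 0.345 without that replicate).

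CEBPB (ENSG00000172216.5, GRCh38 chromosome 20, 50190734 to 50192689, plus strand) encodes the C/EBP factor of emergency granulocyte production and of macrophages. It was 19.2, 18.5 and 17.8 FPKM in the KG-1 ASLAN003 libraries, against 11.2, 11.6 and 16.7 FPKM in the KG-1 DMSO libraries. The KG-1 groups did not overlap, but DMSO replicate 3 lay close to the treated libraries, and the gene was not called (log2 change 0.48 ± 0.23, 95% interval -0.0087 to 0.98, adjusted p = 0.121). It was called without MOLM-14 ASLAN003 replicate 1, with the line fitted alone and with weighted libraries (without that replicate adjusted p = 0.0318, range 0.00581 to 0.313 over the alternatives). CEBPB stood at 19.1, 9.15 and 11.2 FPKM in the MOLM-14 ASLAN003 libraries, against 10.2, 8.38 and 7.74 FPKM in the MOLM-14 DMSO libraries. Replicate 1 alone lay far above the controls, and the other treated libraries fell among or just above them. The log2 change was 0.48 ± 0.23 (adjusted p = 0.189) with that library and 0.20 ± 0.18, adjusted p = 0.531 without it.

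CEBPD (ENSG00000221869.4, GRCh38 chromosome 8, 47736909 to 47739086, minus strand) encodes a C/EBP factor induced by inflammatory signals and by granulocyte colony-stimulating factor. It read 27.1, 29.9 and 33.3 FPKM in the KG-1 ASLAN003 libraries, against 16.9, 17.2 and 22.5 FPKM in the KG-1 DMSO libraries. The groups did not overlap, yet the adjusted p lay just above the threshold (log2 change 0.65 ± 0.24, 95% interval 0.14 to 1.17, adjusted p = 0.0504), and 8 of 22 alternatives called it. Without MOLM-14 ASLAN003 replicate 1, which enters the shared spread, its adjusted p in KG-1 was 0.00279. CEBPD measured 55.9, 26.4 and 27.5 FPKM in the MOLM-14 ASLAN003 libraries, against 20.8, 19.1 and 15.9 FPKM in the MOLM-14 DMSO libraries. All treated libraries exceeded the controls, and replicate 1 was about double the other 2. The gene was called higher in MOLM-14 (log2 change 0.86 ± 0.24, adjusted p = 0.0320), but 8 of 22 alternatives lost the call. They include leaving out ASLAN003 replicate 1 (0.52 ± 0.15, adjusted p = 0.0505) or DMSO replicate 1, 2 or 3 (adjusted p = 0.0553, 0.0736 and 0.105), with an adjusted p of 0.0174 to 0.149 over the alternatives.

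The make-up of the C/EBP transcripts differed between lines and treatments. Summed over CEBPA, CEBPB, CEBPD, CEBPE and CEBPG, the level was 321 ± 20.2 FPKM in KG-1 with ASLAN003 and 267 ± 4.44 FPKM in KG-1 with DMSO (SD, n = 3 each). CEBPA took 38.0% ± 1.56 of this sum in KG-1 with ASLAN003 and 57.9% ± 2.36 with DMSO, and CEBPE took 36.0% ± 1.77 with ASLAN003 and 18.1% ± 0.938 with DMSO. Neither share overlapped between the treatments, so CEBPE came close to the level of CEBPA in treated KG-1. The ratio of CEBPE to CEBPA was 0.948 ± 0.0631 in KG-1 with ASLAN003 and 0.312 ± 0.00547 with DMSO. In MOLM-14 the sum was 409 ± 33.5 FPKM with ASLAN003 and 363 ± 16.2 FPKM with DMSO, and CEBPA took 77.6% ± 3.06 of it with ASLAN003 and 82.8% ± 1.01 with DMSO. CEBPE was 0.207% ± 0.0915 of the sum in MOLM-14 with ASLAN003 and 0.266% ± 0.0961 with DMSO. The share of CEBPD was 8.77% ± 3.23 with ASLAN003 and 5.12% ± 0.466 with DMSO, and ASLAN003 replicate 1 had the highest share, 12.5%. These shares and ratios are descriptions, with no test.

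**Figure D3:**
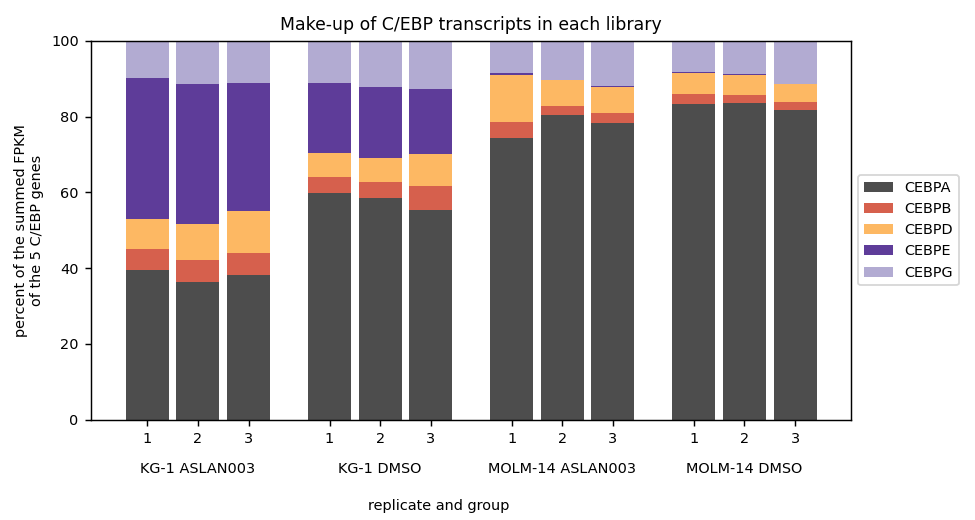
Percent of the summed FPKM of 5 C/EBP genes taken by each gene in each of the 12 libraries (stacked bars from 0 to 100%, replicates 1 to 3 per group). CEBPE takes 34.0% to 37.1% in KG-1 with ASLAN003 and 17.0% to 18.6% in KG-1 with DMSO, and CEBPA takes 74.3% or more in every MOLM-14 library.

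CEBPA has a divergent neighbour, CEBPA-AS1 (ENSG00000267296.2, GRCh38 chromosome 19, 33302857 to 33305054, plus strand), a noncoding RNA gene that GENCODE 29 names CEBPA-DT. It begins upstream of CEBPA on the other strand without overlapping it, and it was chosen for description after its values were seen. Its level was 7.47 ± 1.91 FPKM in KG-1 with ASLAN003 and 7.95 ± 0.354 FPKM with DMSO, and 4.92 ± 0.375 FPKM in MOLM-14 with ASLAN003 and 3.07 ± 0.194 FPKM with DMSO (SD, n = 3 each). Neither change was called (log2 change -0.10 ± 0.17, adjusted p = 0.690 in KG-1, and 0.54 ± 0.17, adjusted p = 0.0531 in MOLM-14). CEBPA-AS1 was higher in KG-1 than in MOLM-14 in DMSO (log2 difference 1.14 ± 0.17, adjusted p = 1.15e-04), the opposite direction to CEBPA itself.

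GFI1 (ENSG00000162676.11, GRCh38 chromosome 1, 92474762 to 92486876, minus strand) encodes a zinc finger repressor that favours granulocytes over monocytes. Among the GFI1 promoter windows, only that shown has matches, to the C/EBP and RUNX motifs. GFI1 measured 92.2, 102 and 83.0 FPKM in the KG-1 ASLAN003 libraries, against 53.7, 52.6 and 61.5 FPKM in the KG-1 DMSO libraries. The KG-1 groups were clearly apart. GFI1 rose 1.65-fold (log2 change 0.71 ± 0.13, adjusted p = 0.000992), and all 22 alternatives kept the call. GFI1 stood at 82.0, 62.5 and 58.9 FPKM in the MOLM-14 ASLAN003 libraries, against 59.1, 56.5 and 53.9 FPKM in the MOLM-14 DMSO libraries. Only replicate 1 lay clearly above the controls, and the groups overlapped slightly. No call was made in MOLM-14 (log2 change 0.24 ± 0.13, 95% interval -0.035 to 0.52, adjusted p = 0.241, and 0.10 ± 0.11, adjusted p = 0.595 without replicate 1).

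IRF8 (ENSG00000140968.10, GRCh38 chromosome 16, 85898803 to 85922609, plus strand) encodes an interferon regulatory factor that pairs with PU.1, promotes monocytes and dendritic cells and restrains granulocytes. It read 66.9, 55.4 and 57.9 FPKM in the KG-1 ASLAN003 libraries, against 87.3, 78.5 and 67.0 FPKM in the KG-1 DMSO libraries. The treated libraries were all lower, although ASLAN003 replicate 1 and DMSO replicate 3 were almost equal. IRF8 was called lower in KG-1 at 0.774 of the DMSO level (log2 change -0.36 ± 0.13, adjusted p = 0.0456). The call was lost in 7 of 22 alternatives (adjusted p of 0.0106 to 0.180 over them), among them without KG-1 ASLAN003 replicate 2 or 3, KG-1 DMSO replicate 1 or 2 or MOLM-14 DMSO replicate 1 or 2, with the log2 change at -0.27 without KG-1 DMSO replicate 1. IRF8 was far higher in the other line, with 655, 527 and 519 FPKM in the MOLM-14 ASLAN003 libraries, against 444, 449 and 374 FPKM in the MOLM-14 DMSO libraries. All treated libraries lay above the controls, replicate 1 furthest. The rise in MOLM-14 was 1.34-fold (log2 change 0.42 ± 0.13, adjusted p = 0.0484), close to the threshold, and 18 of 22 alternatives lost it (adjusted p of 0.0295 to 0.240 over them). Of the 12 fits that leave out 1 library, 10 lost the call. The log2 change was 0.31 ± 0.12, adjusted p = 0.124 without ASLAN003 replicate 1, and 0.34 ± 0.14, adjusted p = 0.161 without DMSO replicate 3.

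KLF4 (ENSG00000136826.14, GRCh38 chromosome 9, 107484852 to 107490482, minus strand) encodes a Krüppel-like factor that acts in monocyte differentiation and rises with growth arrest in other tissues. It was 8.90, 8.20 and 6.66 FPKM in the KG-1 ASLAN003 libraries, against 2.67, 1.59 and 1.20 FPKM in the KG-1 DMSO libraries. Even the lowest treated library was more than double the highest control. KLF4 rose 4.35-fold in mean FPKM in KG-1 (log2 change 1.69 ± 0.22, adjusted p = 0.000100). In the other line KLF4 had 20.1, 16.4 and 15.4 FPKM in the MOLM-14 ASLAN003 libraries, against 5.61, 6.49 and 3.79 FPKM in the MOLM-14 DMSO libraries. The MOLM-14 groups were as clearly apart. The rise in MOLM-14 was 3.27-fold (log2 change 1.56 ± 0.22, adjusted p = 0.00112, and 1.45 ± 0.24, adjusted p = 0.00393 without replicate 1), and the calls in both lines held in all 22 alternatives. Its change was the largest of the 10 genes in each line, from the lowest DMSO level of the 10 in KG-1, and the difference between the lines was 0.13 ± 0.32 (95% interval -0.56 to 0.82, adjusted p = 0.848).

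RUNX1 (ENSG00000159216.18, GRCh38 chromosome 21, 34787801 to 36004667, minus strand) encodes the DNA-binding subunit of core-binding factor, which establishes blood stem cells and is a frequent target of leukaemia translocations. Its level was 65.8, 63.4 and 51.5 FPKM in the KG-1 ASLAN003 libraries, against 35.0, 36.4 and 36.8 FPKM in the KG-1 DMSO libraries. The controls were almost identical and lay below every treated library. RUNX1 rose 1.67-fold in KG-1 (log2 change 0.72 ± 0.18, adjusted p = 0.00769), in all 22 alternatives. RUNX1 measured 89.0, 50.05 and 55.7 FPKM in the MOLM-14 ASLAN003 libraries, against 66.4, 65.3 and 57.4 FPKM in the MOLM-14 DMSO libraries. Replicate 1 lay above the MOLM-14 controls and replicates 2 and 3 below them. The log2 change was -9e-04 ± 0.18 (adjusted p = 1) with all libraries and -0.25 ± 0.12, adjusted p = 0.200 without replicate 1, so the value moved with that library.

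RARA (ENSG00000131759.17, GRCh38 chromosome 17, 40309192 to 40357643, plus strand) encodes the retinoic acid receptor alpha, a nuclear receptor that is fused to PML in acute promyelocytic leukaemia and whose ligand matures those cells. It was 30.9, 25.8 and 30.02 FPKM in the KG-1 ASLAN003 libraries, against 11.4, 11.8 and 11.8 FPKM in the KG-1 DMSO libraries. The controls were tightly grouped well below the treated libraries. RARA rose 2.48-fold in KG-1 (log2 change 1.24 ± 0.19, adjusted p = 0.000261), in all 22 alternatives. MOLM-14 cells had more of it, 62.8, 41.8 and 34.0 FPKM in the MOLM-14 ASLAN003 libraries, against 26.2, 27.7 and 21.2 FPKM in the MOLM-14 DMSO libraries. The groups did not overlap, with a wide spread among treated libraries. RARA rose 1.85-fold in MOLM-14 (log2 change 0.82 ± 0.19, adjusted p = 0.0131, and 0.58 ± 0.14, adjusted p = 0.0229 without ASLAN003 replicate 1). Of 22 alternatives 3 lost this call, including leaving out DMSO replicate 3 (adjusted p = 0.0528, range 0.00335 to 0.105 over the alternatives).

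**Figure D4:**
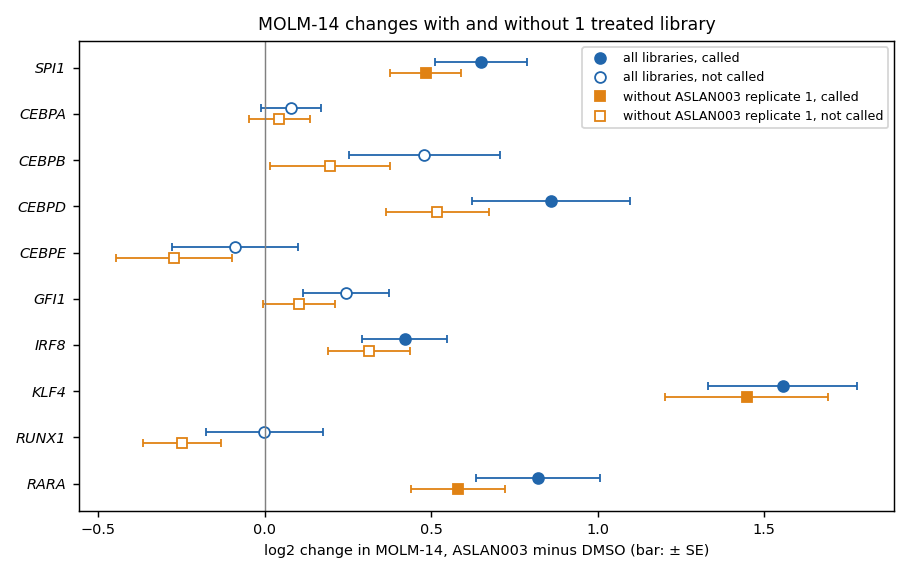
Log2 change in MOLM-14 (ASLAN003 minus DMSO, on log2(FPKM + 1), bars ± SE) of each gene with all libraries and without ASLAN003 replicate 1, filled where called at an adjusted p under 0.05. Every point moves down without that library: 5 genes are called with it, and KLF4, RARA and SPI1 without it.

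The difference of the log2 changes, KG-1 minus MOLM-14, uses the same libraries as the changes within each line. It was called above 0 for CEBPE and below 0 for IRF8, against 5.05% and 4.89% of all tested genes. For CEBPE the difference was 1.33 ± 0.27 (adjusted p = 0.00896), and it missed the threshold with a pseudocount of 0.1 (adjusted p = 0.0682). CEBPE passed the filter on low values through KG-1, since only 2 of the 6 MOLM-14 libraries reached 1 FPKM. Its difference therefore stands mainly for the rise in KG-1 and supports no statement on MOLM-14. For IRF8, lower with ASLAN003 in KG-1 and higher in MOLM-14, it was -0.78 ± 0.18 (adjusted p = 0.0174), and it was lost without KG-1 DMSO replicate 1 (adjusted p = 0.0538, range 0.0138 to 0.0538 over the alternatives). RUNX1 (0.72 ± 0.25, adjusted p = 0.0918), GFI1 (0.47 ± 0.18, adjusted p = 0.128), CEBPA (-0.42 ± 0.13, adjusted p = 0.0571), RARA (0.42 ± 0.26, adjusted p = 0.366) and SPI1 (0.33 ± 0.19, adjusted p = 0.321) were not called. Without MOLM-14 ASLAN003 replicate 1, 5 genes were called above 0, with RUNX1 (0.96 ± 0.16, adjusted p = 0.00205), GFI1 (0.61 ± 0.14, adjusted p = 0.0133), RARA (0.66 ± 0.19, adjusted p = 0.0346) and SPI1 (0.50 ± 0.14, adjusted p = 0.0335) beside CEBPE (1.51 ± 0.23, adjusted p = 0.00147). IRF8 was below 0 in that fit too (-0.67 ± 0.17, adjusted p = 0.0159). A different change of RUNX1, GFI1, RARA and SPI1 in the lines was thus seen only when that library was left out or, for all of these but RARA, when libraries were weighted by their spread. Over all tested genes, calls for the difference rose from 1327 to 2357 without that library and to 2226 with weighted libraries. For CEBPB the difference was close to 0 (95% interval -0.69 to 0.70), and for CEBPD it was -0.21 ± 0.34 (95% interval -0.94 to 0.52), intervals that include differences as large as the changes themselves. The difference for CEBPA was called below 0 without KG-1 ASLAN003 replicate 1 (adjusted p = 0.0422).

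Between the lines in DMSO, 6571 of all 13353 tested genes were called, a share near that of the 10 genes. Of the 10, 1 gene was higher in KG-1 than in MOLM-14 (CEBPE) and 5 were lower (IRF8, KLF4, RARA, CEBPA and RUNX1), against 27.1% of all tested genes called higher and 22.1% lower. CEBPE averaged 48.3 ± 3.28 FPKM in KG-1 and 0.973 ± 0.375 FPKM in MOLM-14 (SD, n = 3 each), a log2 difference of 4.66 ± 0.19 (adjusted p = 1.16e-09). It passed the filter on low values through KG-1, the line where it is high, so its p-value lends this difference no support. IRF8 averaged 77.6 ± 10.1 FPKM in KG-1 and 422 ± 42.0 FPKM in MOLM-14 (-2.43 ± 0.13, adjusted p = 1.09e-08). CEBPA was at 0.515 of the MOLM-14 level (-0.95 ± 0.090, adjusted p = 2.32e-06), RARA at 0.466 (-1.03 ± 0.19, adjusted p = 0.000558), KLF4 at 0.344 (-1.17 ± 0.22, adjusted p = 0.000867) and RUNX1 at 0.573 (-0.78 ± 0.18, adjusted p = 0.00268). SPI1, CEBPD and GFI1 overlapped between the lines in DMSO, with log2 differences of 0.10 ± 0.14, 0.016 ± 0.24 and -0.017 ± 0.13 and 95% intervals of -0.20 to 0.40, -0.50 to 0.53 and -0.30 to 0.26. CEBPB was not called (0.52 ± 0.23, adjusted p = 0.0735).

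With ASLAN003, 3 genes were higher in KG-1 than in MOLM-14 (CEBPE, GFI1 and SPI1) and 4 were lower (IRF8, CEBPA, KLF4 and RARA), against 27.9% of all tested genes called higher and 25.2% lower. These comparisons use the same treated libraries as the changes within each line. The log2 difference of CEBPE was 5.99 ± 0.19 (adjusted p = 1.07e-10), that of GFI1 0.45 ± 0.13 (adjusted p = 0.0102) and that of SPI1 0.43 ± 0.14 (adjusted p = 0.0181). For CEBPE, which passed the filter on low values through KG-1, the p-value again lends no support. The SPI1 call was lost in 4 alternatives, including without KG-1 ASLAN003 replicate 1 (adjusted p = 0.0667) and without MOLM-14 ASLAN003 replicate 2 (adjusted p = 0.0544) or 3 (adjusted p = 0.0779), with an adjusted p of 0.000535 to 0.0779 over the alternatives. IRF8 was at 0.106 of its MOLM-14 level (-3.21 ± 0.13, adjusted p = 8.81e-10), CEBPA at 0.386 (-1.37 ± 0.090, adjusted p = 6.48e-08), KLF4 at 0.457 (-1.04 ± 0.22, adjusted p = 0.00175) and RARA at 0.626 (-0.62 ± 0.19, adjusted p = 0.0141). RARA lost its call with the treatment fitted alone and without KG-1 ASLAN003 replicate 2 (adjusted p = 0.0567, range 0.00232 to 0.0567 over the alternatives). Without MOLM-14 ASLAN003 replicate 1 the same 7 genes were called, with RARA at -0.38 ± 0.14, adjusted p = 0.0404, and CEBPB was called higher in KG-1 as well (0.81 ± 0.18, adjusted p = 0.00227, against 0.53 ± 0.23, adjusted p = 0.0676, with all libraries). CEBPB was also called with weighted libraries (adjusted p = 0.0196). RUNX1, lower in KG-1 in DMSO, overlapped between the treated lines (-0.068 ± 0.18, 95% interval -0.45 to 0.32, adjusted p = 0.767).

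The order of levels among the 10 genes, set per length in FPKM, also differed. In KG-1 with ASLAN003 it was SPI1, CEBPA, CEBPE, GFI1, RUNX1, IRF8, CEBPD, RARA, CEBPB and KLF4, and CEBPA and CEBPE, RUNX1 and IRF8, and CEBPD and RARA were neighbours that overlapped. In KG-1 with DMSO it was CEBPA, SPI1, IRF8, GFI1, CEBPE, RUNX1, CEBPD, CEBPB, RARA and KLF4, with overlap only between CEBPB and RARA. SPI1 therefore stood above CEBPA in every treated KG-1 library and below it in every control, and the ratio of SPI1 to CEBPA was 2.00 ± 0.0770 with ASLAN003 and 0.796 ± 0.0139 with DMSO. In MOLM-14 this ratio was 0.576 ± 0.101 with ASLAN003 and 0.383 ± 0.0284 with DMSO (SD, n = 3 each). MOLM-14 began with IRF8, CEBPA and SPI1 and ended with CEBPE in both treatments, and none of the leading 3 overlapped its neighbour. IRF8 was exceeded by only 173 of the 13353 tested genes in MOLM-14 with ASLAN003 (1.30%) and 212 with DMSO (1.59%). In KG-1, 361 tested genes (2.70%) exceeded SPI1 with ASLAN003 and 818 (6.13%) with DMSO. The ratio of IRF8 to GFI1, genes of the monocytic and granulocytic sides, was 0.655 ± 0.0993 in KG-1 with ASLAN003 and 1.40 ± 0.278 with DMSO, and 8.42 ± 0.412 in MOLM-14 with ASLAN003 and 7.47 ± 0.511 with DMSO. It did not overlap between the treatments in either line, in MOLM-14 by a narrow margin.

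Genes that textbooks place near these factors were counted in the same fits, in lists chosen with earlier results of these data known. Their counts stand beside the shares of all tested genes. These shares were 19.4% called higher and 14.3% lower in KG-1, and 9.69% higher and 3.33% lower in MOLM-14. Of 9 tested PU.1 target genes, 7 rose and 0 fell in each line (medians of 1.32 in KG-1 and 0.89 in MOLM-14), by limma, with 1 lower in KG-1 and 0 in MOLM-14 at an unadjusted p under 0.05. In KG-1, CYBB, the catalytic subunit gene of the phagocyte oxidase, had 175 ± 9.66 FPKM with ASLAN003 against 8.20 ± 1.27 FPKM with DMSO (log2 change 4.26 ± 0.22, adjusted p = 1.04e-07). The CD11b gene ITGAM (log2 change 3.97 ± 0.23), the oxidase subunit gene NCF4 (2.15 ± 0.22) and the macrophage lysosomal gene CD68 (1.50 ± 0.20) rose there as well, with adjusted p of at most 8.63e-05. In MOLM-14, ITGAM (2.18 ± 0.23, adjusted p = 0.000184), CD68 (1.13 ± 0.20, adjusted p = 0.00331) and the colony-stimulating factor receptor genes CSF2RA (1.28 ± 0.19, adjusted p = 0.00114) and CSF1R (1.12 ± 0.31, adjusted p = 0.0332) rose. CSF2RA has near-identical copies on chromosomes X and Y, which makes its value uncertain. Without MOLM-14 ASLAN003 replicate 1, 5 of the 9 were called in MOLM-14. Leaving out MOLM-14 DMSO replicate 1, 2 or 3 each kept 4 of the 7 calls, and ITGAM, CSF2RA and CD68 held in all of these fits. CSF1R was lost without ASLAN003 replicate 1 (0.71, adjusted p = 0.0737), as it was without each MOLM-14 DMSO library (adjusted p of at most 0.118).

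The C/EBP target genes of granules and receptors moved in opposite directions. Of 9 tested, 4 rose and 4 fell in KG-1 (median -0.40), and 2 rose and 2 fell in MOLM-14 (median 0.19). Without MOLM-14 ASLAN003 replicate 1 these MOLM-14 counts were the same, but CSF3R lost its call and another gene of the list gained one. The lysozyme gene LYZ rose in KG-1 (log2 change 3.19 ± 0.12, adjusted p = 1.37e-08) and in MOLM-14 (2.32 ± 0.12, adjusted p = 6.82e-07), and CAMP, a secondary granule gene, rose in KG-1 (2.91 ± 0.38, adjusted p = 9.19e-05). The primary granule genes MPO and ELANE fell in KG-1 (-2.05 ± 0.16, adjusted p = 1.57e-06, and -1.66 ± 0.12, adjusted p = 1.50e-06) and in MOLM-14 (-1.89 ± 0.16, adjusted p = 3.44e-05, and -0.88 ± 0.12, adjusted p = 0.00109). The granulocyte colony-stimulating factor receptor gene CSF3R, which is also on the PU.1 list, rose in MOLM-14 (0.75 ± 0.21, adjusted p = 0.0366), but 7 of the 12 fits without 1 library lost it (0.47, adjusted p = 0.0769 without MOLM-14 ASLAN003 replicate 1, and an adjusted p of at most 0.128). They are those without KG-1 ASLAN003 replicate 1, each KG-1 DMSO library, MOLM-14 ASLAN003 replicate 1 and MOLM-14 DMSO replicates 1 and 3.

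Inhibitors of transcription factors, with the ID genes among them, formed a further list. Of its 5 tested genes, 2 rose and 1 fell in KG-1, and 0 rose and 1 fell in MOLM-14 (1 higher and 2 lower at an unadjusted p under 0.05 by limma). ID2, an inhibitor without a DNA-binding domain that keeps partner factors off DNA, had 56.6 ± 11.4 FPKM with ASLAN003 against 8.92 ± 2.77 FPKM with DMSO in KG-1 (log2 change 2.55 ± 0.21, adjusted p = 2.61e-06). TRIB1, whose pseudokinase product targets C/EBP-alpha for degradation, rose in KG-1 (1.16 ± 0.20, adjusted p = 0.000693). ID1 fell in KG-1 (-1.26 ± 0.35, adjusted p = 0.0145), a call lost without KG-1 ASLAN003 replicate 3 or KG-1 DMSO replicate 1 (adjusted p of at most 0.0654). ID3 fell in MOLM-14 (-1.83 ± 0.26, adjusted p = 0.00109). Of 3 further genes tested, CEBPG, CEBPZ and DDIT3, 0 were called in either line by limma (at an unadjusted p under 0.05, 0 in KG-1 and 1 higher in MOLM-14), with log2 changes of -0.38 to 0.35.

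Of 10 tested relatives of PU.1 and IRF8, 7 rose and 0 fell in KG-1 (1 lower at an unadjusted p under 0.05 by limma, median 0.75), and 2 rose and 0 fell in MOLM-14 (1 lower at an unadjusted p under 0.05, median 0.17, 1 higher without MOLM-14 ASLAN003 replicate 1). The interferon regulatory factor genes IRF7 (1.33 ± 0.19), IRF1 (1.27 ± 0.17), IRF9 (1.26 ± 0.16) and IRF5 (0.96 ± 0.16) rose in KG-1, with adjusted p of at most 0.000486, while IRF8 fell there. In MOLM-14, IRF5 (1.10 ± 0.16, adjusted p = 0.00109) and IRF9 (0.60 ± 0.16, adjusted p = 0.0306) rose. IRF9 lost its call without MOLM-14 ASLAN003 replicate 1 (0.53, adjusted p = 0.0770), replicate 2 or any MOLM-14 DMSO library (adjusted p of at most 0.0879).

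Other Krüppel-like factor genes gave a mixed picture. Of 10 tested, 5 rose and 1 fell in KG-1 (median 0.49), and 2 rose and 0 fell in MOLM-14 (0 lower at an unadjusted p under 0.05 by limma, median 0.40, also 2 higher without MOLM-14 ASLAN003 replicate 1). KLF10 (1.35 ± 0.21, adjusted p = 0.000294), KLF2 (1.24 ± 0.36, adjusted p = 0.0172), KLF13 (1.00 ± 0.13, adjusted p = 0.000109) and KLF7 (0.92 ± 0.32, adjusted p = 0.0390) rose in KG-1. Of the 5 calls, 2 held without KG-1 DMSO replicate 2 and 3 held in the fit without KG-1 ASLAN003 replicate 1 and 3 in that without replicate 3. KLF2 lost its call without KG-1 ASLAN003 replicate 3 or KG-1 DMSO replicate 2, and KLF7 without each of the 6 KG-1 libraries (adjusted p of at most 0.0788 and 0.111). In MOLM-14, KLF13 (0.88 ± 0.13, adjusted p = 0.00149) and KLF6 (0.76 ± 0.17, adjusted p = 0.0132) rose, KLF6 not without MOLM-14 DMSO replicate 2 (adjusted p = 0.0567).

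Of 5 tested partners and paralogues of RUNX1, among them CBFB, the other subunit of core-binding factor, 0 were called in either line by limma, and 0 reached an unadjusted p under 0.05. Of 5 genes of the GFI1 repressor complex, the lysine demethylase gene KDM1A fell in KG-1 (-0.56 ± 0.10, adjusted p = 0.00105) and HDAC1 rose (0.32 ± 0.10, adjusted p = 0.0249). HDAC1 lost its call without KG-1 ASLAN003 replicate 1 or 2 or KG-1 DMSO replicate 1 or 2 (adjusted p of at most 0.107). In MOLM-14 0 of the 5 were called (1 higher at an unadjusted p under 0.05). Of 7 genes of retinoid reception and handling, 3 rose and 1 fell in KG-1. CRABP1, a retinoic acid binding protein gene (1.22 ± 0.18, adjusted p = 0.000198), and the receptor genes RARG (0.91 ± 0.19, adjusted p = 0.00261) and RXRA (0.41 ± 0.14, adjusted p = 0.0405) rose. DHRS3, a retinal reductase gene that retinoic acid induces in many cells, fell (-1.45 ± 0.23, adjusted p = 0.000373). RXRA lost its call in 6 of the 12 fits without 1 library, those without KG-1 ASLAN003 replicate 1 or 3, each KG-1 DMSO library or MOLM-14 DMSO replicate 2 (adjusted p of at most 0.122). In MOLM-14 0 of the 7 were called by limma (1 higher and 2 lower at an unadjusted p under 0.05).

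Among 10 further transcription factors of monocytes and macrophages, 6 rose and 0 fell in KG-1 (median 0.73), and 3 rose and 0 fell in MOLM-14 (median 0.17), with 0 lower in KG-1 and 2 in MOLM-14 at an unadjusted p under 0.05 by limma. EGR1 (1.43 ± 0.24, adjusted p = 0.000660), an early response factor of monocyte differentiation, NR4A1 (1.29 ± 0.23, adjusted p = 0.000962), a nuclear receptor of patrolling monocytes in mice, and the lipid sensor gene PPARG (0.91 ± 0.23, adjusted p = 0.00952) rose in KG-1. PPARG was not called without KG-1 DMSO replicate 2 (adjusted p = 0.0512). TFEC (1.01 ± 0.20, adjusted p = 0.00657), BHLHE40 (0.79 ± 0.19, adjusted p = 0.0154) and the vitamin D receptor gene VDR (0.77 ± 0.17, adjusted p = 0.0107) rose in MOLM-14, and BHLHE40 was not called without MOLM-14 DMSO replicate 2 or 3 (adjusted p of at most 0.0549). Without MOLM-14 ASLAN003 replicate 1, 3 of the 10 were called higher in MOLM-14, and BHLHE40 moved to 0.52, adjusted p = 0.0147. Of 12 stem cell, progenitor and other lineage factors, 5 rose and 2 fell in KG-1 (median 0.33), and 4 rose and 0 fell in MOLM-14 (0 lower at an unadjusted p under 0.05 by limma, median 0.33). NFE2 and IKZF1 rose in KG-1 (1.50 ± 0.15 and 1.23 ± 0.10, adjusted p of at most 8.91e-06) and in MOLM-14 (0.99 ± 0.15 and 0.48 ± 0.10, adjusted p of at most 0.00736). Of the 5 genes that rose in KG-1, 3 kept their call without ASLAN003 replicate 1 or 2 or DMSO replicate 1 or 2. LMO2 rose in KG-1 (0.68 ± 0.13, adjusted p = 0.00137) and BCL11A fell (-1.60 ± 0.21, adjusted p = 0.000100). GATA2 (1.24 ± 0.29, adjusted p = 0.0142) and LMO2 (0.50 ± 0.13, adjusted p = 0.0229) rose in MOLM-14. Of the 4 in MOLM-14, 2 held without DMSO replicate 3, and 4 genes were called higher without ASLAN003 replicate 1, with GATA2 at 0.83, adjusted p = 0.0175 and LMO2 at 0.34, adjusted p = 0.0411. GATA2 was not called without MOLM-14 DMSO replicate 3 (adjusted p = 0.0567), nor LMO2 without any 1 of the MOLM-14 DMSO libraries (adjusted p of at most 0.0742).

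**Figure D5:**
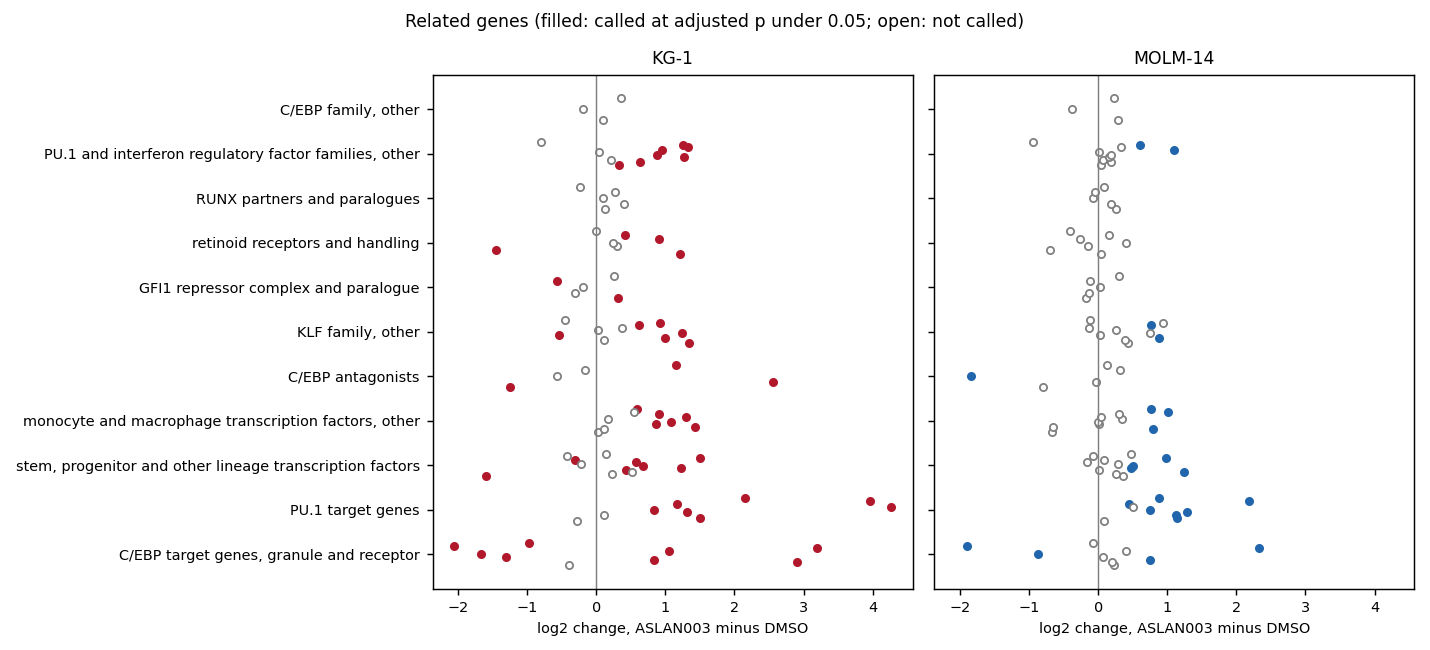
Log2 change (ASLAN003 minus DMSO, on log2(FPKM + 1)) of every tested gene of the related lists, KG-1 on the left and MOLM-14 on the right, with filled points for calls at an adjusted p under 0.05. The PU.1 target genes lie mostly right of 0 in both lines (7 of 9 called in each), and the C/EBP target genes lie on both sides. The list labelled C/EBP antagonists includes the ID genes, inhibitors of other transcription factors.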

How the data were processed

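RNA sequencing libraries of KG-1 and MOLM-14 cells (4 groups of 3 libraries) were analysed. Per the submitters' processing notes, the tools were RSEM 1.2.25, STAR 2.4.2a and bcl2fastq 2.17.1.14, with the builds hg38 and GRCh38. The sources used here name no annotation. The deposited table gives log2(FPKM + 1) per gene and library, a scale read from the authors' values, since 100% of the FPKM values under 5 lie on steps of 0.01. Each of the 12 columns carries the name of 1 sample, and 0 per-sample columns were left unused. It holds no counts, so no counting interval or depth is given, and precision comes from the spread between libraries.

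Genes were kept that reached 1 FPKM in 3 or more libraries, and these 13353 were fitted with limma 3.58.1 in R 4.3.3 (4 group means, pseudocount 1, eBayes with a mean trend and robust estimation), two-sided, with Benjamini-Hochberg adjustment over all of them. No replicate pair held identical values throughout (at most 4.28% of genes). Symbols and versioned identifiers are those of the table, and 13784 identifiers were found in GENCODE 29, whose GRCh38 positions are given. Of CSF2RA, listed for chromosomes X and Y, the row given earlier was used.

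The 10 genes, the related lists and the tests were chosen with earlier results of these data known. Named besides the 10 genes are, per list and line, up to 4 called genes with the largest absolute change. For 1 of these the result is not reported here. The fit was tested on simulated data. Alternatives were a pseudocount of 0.1, no filter or a filter at 5 FPKM, quantile normalization, median centring, rescaling as given above (274 genes left out of the total), weighted libraries, a fit of each line or treatment alone, eBayes without trend and robust estimation, a block for the replicate number, and each library left out in turn.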

Additional observations from a re-analysis of the deposited data

Results flagged for a closer look

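For 2 of the 10 genes the difference between the lines in the change after ASLAN003 was itself called (limma, adjusted over 13353 genes). Of all tested genes, 5.05% were called above 0 and 4.89% below 0. CEBPE had a difference of log2 changes, KG-1 minus MOLM-14, of 1.33 (adjusted p = 0.00896, and 0.0682 with a pseudocount of 0.1). It passed the filter on low values through KG-1, since 2 of 6 MOLM-14 libraries reached 1 FPKM, and log2(FPKM + 1) understates any change at that level, so the difference is no measure of what MOLM-14 did. Its log2 change was 1.24 ± 0.19 in KG-1, higher in 3 of 3 treated libraries than in any control, and -0.090 ± 0.19 in MOLM-14, where the groups overlapped at no more than 1.36 FPKM. IRF8 had a difference of -0.78 (adjusted p = 0.0174), with a log2 change of -0.36 ± 0.13 in KG-1, where 3 of 3 treated libraries lay below every control, and 0.42 ± 0.13 in MOLM-14, where 3 of 3 lay above. This difference was lost without KG-1 DMSO replicate 1 (adjusted p = 0.0538). The call within KG-1 was lost in 7 of 22 alternatives, and that within MOLM-14 in 18 of 22.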

How the results depend on the processing

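The 10 genes gave 50 results (5 comparisons each), of which 21 kept their direction and their side of the threshold in every alternative run. Of 1070 alternative values, 968 kept both, 46 lost a call, 25 gained one and 31 changed sign. Members called lower in KG-1 (2) became 1 with no trend and no robust estimation and 0 to 2 without 1 library (IRF8 and CEBPA, as given above). Members called higher in MOLM-14 (5) became 3 after median centring, 3 after quantile normalization, 1 with the line fitted alone, 2 with weighted libraries and 2 to 5 without 1 library (3 without ASLAN003 replicate 1, DMSO replicate 1 or DMSO replicate 2, and 2 without DMSO replicate 3). For the difference between the lines, members called higher (1) became 0 with a pseudocount of 0.1, 4 with weighted libraries and 1 to 5 without 1 library, and members called lower (1) were 0 to 2. In DMSO, members higher in KG-1 (1) became 2 with the treatment fitted alone or weighted libraries and 1 to 2 without 1 library, by CEBPB.

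Over all genes, KG-1 calls (4494, with 2585 higher) became 7014 with weighted libraries. MOLM-14 calls (1738) became 346 with the line fitted alone, 953 with weighted libraries and 1070 to 2319 without 1 library (1134 and 1070 without DMSO replicates 1 and 2). Calls for the difference (1327) became 2226 with weighted libraries and 745 to 2357 without 1 library (775 and 857 without KG-1 ASLAN003 replicates 1 and 2, 745 and 809 without KG-1 DMSO replicates 1 and 2, and 2357 without MOLM-14 ASLAN003 replicate 1). The higher share of calls was 57.5% in KG-1 (1909 lower) and 42.7% after centring (1994 higher, 2671 lower) or 46.1% after quantile normalization (2184 and 2557), and 74.5% in MOLM-14 (1294 and 444), 44.1% after centring (728 and 921) and 57.1% after quantile normalization (752 and 566). The cause was not tested.

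Changes of sign were all in values that were not called. In MOLM-14, CEBPA was -0.072 after median centring, and without 1 library CEBPE ran from -0.27 to 0.069 and RUNX1 from -0.25 to 0.16. For the difference, CEBPB was -0.0046 with a pseudocount of 0.1, -0.0083 after rescaling and -0.20 to 0.29 without 1 library, CEBPD was -0.39 to 0.13 and KLF4 -0.032 to 0.34. In DMSO, KG-1 minus MOLM-14, CEBPD was -0.039 after centring, -0.013 after quantile normalization, -0.0011 after rescaling, -0.044 with weighted libraries and -0.11 to 0.10 without 1 library, where GFI1 was -0.086 to 0.025. In ASLAN003, RUNX1 was 0.11 with weighted libraries and -0.23 to 0.18 without 1 library, and CEBPD -0.38 to 0.15.

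Replicates of the same number did not deviate together (r of 0.041, 0.020 and 0.032 in KG-1 and 0.10, -0.0019 and 0.040 in MOLM-14), so the numbers are not taken as pairs. With the replicate number as a block, 4400 genes were called in KG-1, 1598 in MOLM-14 and 1125 for the difference, and among the 10 genes 1 call changed, CEBPD in KG-1 (0.65 ± 0.17, adjusted p = 0.0201). The block was not run between the lines, nor the fit of each line alone for the difference. FPKM near 1, as for CEBPE in MOLM-14, limits what can be seen.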
